A study of Mus musculus with 8 samples.

Results

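The cells described here are the Pdcd1-positive CD8 T cells of the spleen, taken from mice carrying an Eomes transgene (EomesTG, labelled EomesTg/Tg) and from wild-type C57BL/6 mice (WT). A spleen barcode was a member if it held at least 500 UMIs, at least 300 genes, under 10% mitochondrial UMIs and at least 1 UMI of Pdcd1, the gene of the inhibitory receptor PD-1. In WT spleen 148 of 5335 kept cells were members and in EomesTG spleen 165 of 5726. Together these were 313 of 11061 kept spleen cells, and 18732 cells were kept over the 4 expression libraries of the series. Each library held CD8+ T cells sorted from the spleens or livers of 3 mice of 1 strain, pooled before sorting, and was made with 10x Genomics 5′ chemistry, which counts molecules by unique molecular identifiers (UMIs), with a T cell receptor library from the same cells. The study asked how gain of function of Eomes in T cells changes gene expression and the growth of clones in both organs. The promoter of the transgene, the sex and the age of the mice were not given in the sources used here. There was 1 library per genotype and organ, so no difference below has a replicate check, and no p-value was computed. Every interval is an exact 95% interval that covers counting error only, not differences between mice or preparations. Intervals of summed levels and of their ratios treat UMIs as independent, so they do not cover the spread between cells of 1 library either.

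PD-1 is an inhibitory receptor that T cells put on their surface after antigen recognition. When it binds its ligands PD-L1 or PD-L2 it recruits phosphatases that dampen signals from the T cell receptor and from CD28. Brief activation gives a short wave of PD-1, and chronic stimulation gives lasting PD-1 together with other inhibitory receptors such as LAG-3 and TIGIT and the transcription factor TOX. Eomes is a T-box transcription factor of memory, NK and chronically stimulated T cells.

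The members carried the RNA of CD8 T cells. All 6 CD8 T cell markers (Cd3d, Cd3e, Cd3g, Cd8a, Cd8b1 and Trac) were detected in both libraries, at a summed level of 4578 CPM (UMIs of a gene per 1000000 UMIs of the same cells) in WT members and 5337 CPM in EomesTG members. Of the CD4 T cell list, Cd4 was at 0 in WT members and had 1 UMI in EomesTG members, and Cd40lg and Foxp3 had 8 and 6 UMIs in WT members and were at 0 in EomesTG members; the whole list summed to 136 CPM in WT and 234 CPM in EomesTG. Ncr1, the defining receptor of NK cells, was at 0 in both, as were the B cell genes Cd79a and Ms4a1 and the myeloid genes Lyz2 and Csf1r. The NK cell list, which holds Eomes itself, summed to 157 CPM in WT and 274 CPM in EomesTG, with 5 of 7 genes detected in each. The B cell list summed to 219 CPM in both, the myeloid list to 9.94 and 25.1 CPM, the dendritic list (with Flt3 and Siglech at 0) to 247 and 215 CPM, the plasma cell list to 40.7 and 36.6 CPM and the gamma-delta T cell list to 18.1 and 66.8 CPM. No erythroid or platelet marker was found. The part of these other markers in the results was not tested. The 2 spleen libraries shared 57 cell barcodes, none of them Pdcd1-positive in both. Lag3 and Tigit, the other checkpoint markers of these cells, were detected in both genotypes.

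The share of spleen cells that were Pdcd1-positive had overlapping intervals in the 2 genotypes. It was 2.77% in WT (interval 2.35 to 3.25) and 2.88% in EomesTG (2.46 to 3.35). With every cell thinned to 2000 UMIs, 69 of 5080 WT cells (1.36%) and 83 of 5353 EomesTG cells (1.55%) held a Pdcd1 UMI. The amount per member was higher in EomesTG: the members held 198 Pdcd1 UMIs in WT and 301 in EomesTG, which is 179 CPM (155 to 206) against 314 CPM (280 to 352). Most members lay just inside the rule, with exactly 1 Pdcd1 UMI in 117 of the WT and 111 of the EomesTG cells, and every cell just outside it had 0. Members with at least 3 Pdcd1 UMIs numbered 9 in WT and 25 in EomesTG, and those with at least 5 numbered 2 and 15. These values chose the members and are given as a description. The median depth was 5581 UMIs in WT members and 4646 in EomesTG members, against 5012 and 4754 in the Pdcd1-zero cells of the same libraries. In the livers of the same mice, 254 of 3150 WT cells (8.06%) and 2790 of 4521 EomesTG cells (61.7%) met the same rule.

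The genotypes differed in where the Pdcd1-positive cells sat. The 2 spleen libraries were clustered together into 12 clusters without Pdcd1 or Eomes among the genes used. Cluster 5 was called effector-like because all 8 effector-like markers (such as Klrg1, Cx3cr1, S1pr5 and Zeb2) were higher in it than in other cells. The name was given with the cells of both genotypes pooled. In the same cluster 7 of 8 memory-like markers and all 3 checkpoint markers were higher too. Over all members the effector-like markers summed to 847 CPM in WT and 484 CPM in EomesTG. Among the cluster's Pdcd1-zero cells, the markers Gzma, S1pr5, Zeb2 and S100a4 were lower in EomesTG and none was higher, by the calls defined below. Among its members, Gzma and S100a4 were lower, none was higher, and Klrg1 and S1pr5 had too few UMIs. For these markers the name thus does not describe both genotypes equally. Cluster 5 held 56 of the 148 WT members (37.8%) and 95 of the 165 EomesTG members (57.6%). Within it, 56 of 608 WT cells were Pdcd1-positive (9.21%, interval 7.03 to 11.8), against 95 of 395 EomesTG cells (24.1%, 19.9 to 28.6). Thinned to equal depth the shares were 5.80% and 15.2%. The intervals of the 2 genotypes thus lay apart in this cluster. Its size also differed, at 11.4% of the kept WT and 6.90% of the kept EomesTG spleen cells. Of all kept spleen cells, its members were 56 of 5335 in WT and 95 of 5726 in EomesTG. These shares use the readout of the rule and are a description.

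In the other clusters the shares of the genotypes had overlapping intervals or rested on few cells. In the cycling-like cluster, whose cells were the deepest of all clusters with median UMIs of 12191.5 in WT and 11840.5 in EomesTG, 27 of 136 WT cells (19.9%, 13.5 to 27.6) and 12 of 52 EomesTG cells (23.1%, 12.5 to 36.8) were members. A cluster led by Nr4a1, Egr3 and Tnfrsf9, genes switched on soon after receptor stimulation, gave 17 of 171 WT cells (9.94%) and 18 of 279 EomesTG cells (6.45%). A cluster led by Sox4, Hdac9 and Tubb2b gave 25 of 699 WT cells (3.58%) and 21 of 551 EomesTG cells (3.81%). The memory-like cluster held 4 members in each library. In the naive-like clusters combined, where Pdcd1 is little expressed and a UMI may come from free RNA, 7 of 2033 WT cells (0.344%) and 7 of 3142 EomesTG cells (0.223%) were positive. Most naive-like cells were in cluster 2 in WT (1220 cells) and in cluster 0 in EomesTG (2129 cells).

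**Figure D1:**
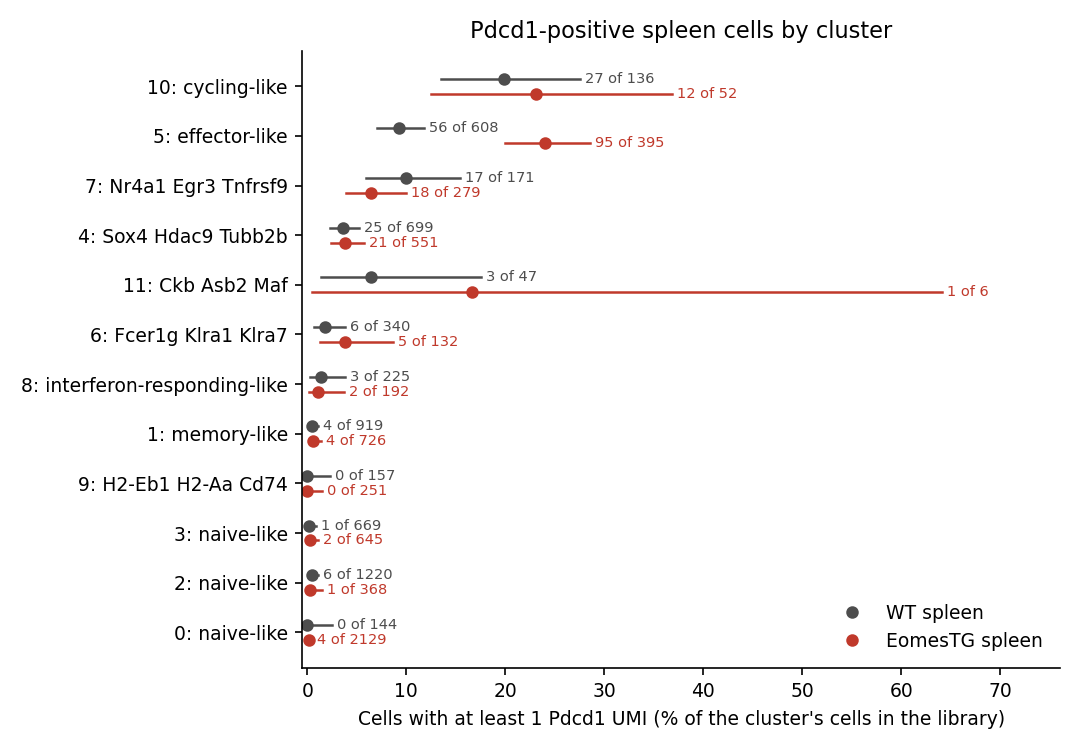
Share of cells that were Pdcd1-positive (percent, horizontal axis) in each cluster of spleen cells (vertical axis), for WT and EomesTG, with exact 95% intervals as bars and the number of positive cells of all cells printed beside each point. The effector-like cluster stands at 9.21% in WT and 24.1% in EomesTG, whereas the cycling-like cluster stands at 19.9% and 23.1%.

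Receptor sequences, which the rule did not use, gave shares of expanded members with overlapping intervals in the 2 genotypes. A clone was defined as the cells of 1 genotype with the same productive TRA and TRB V genes and CDR3 sequences. A full receptor was read in 114 WT members, which fell into 102 clones, and in 136 EomesTG members, which fell into 121 clones. Of these, 23 WT members (20.2%, interval 13.2 to 28.7) and 29 EomesTG members (21.3%, 14.8 to 29.2) belonged to a spleen clone of 2 or more cells. Among Pdcd1-zero cells the shares were 3.03% in WT and 2.19% in EomesTG. Within the effector-like cluster, 37.2% of WT and 34.6% of EomesTG members were in such clones, and 18.8% and 17.0% of Pdcd1-zero cells. Clones also seen in the liver library of the same genotype held 20.2% of WT members and 25.0% of EomesTG members, against 2.69% and 0.821% of Pdcd1-zero cells. Within the effector-like cluster these shares lay closer together. There such clones held 37.2% of WT members and 22.7% of WT Pdcd1-zero cells, with overlapping intervals. In EomesTG they held 41% of members and 14.8% of Pdcd1-zero cells of that cluster, with intervals that lay apart. No clone was found in both genotypes.

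**Figure D2:**
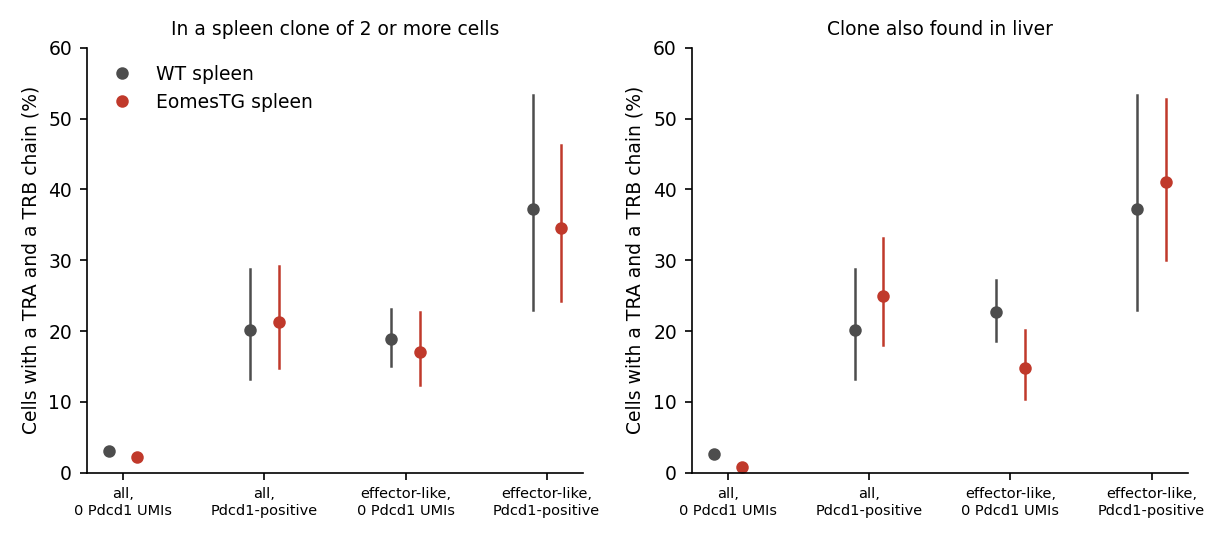
Share of spleen cells with a full receptor (percent, vertical axis) that belong to a spleen clone of 2 or more cells, or to a clone also found in the liver of the same genotype, for Pdcd1-zero and Pdcd1-positive cells, over all cells and within the effector-like cluster; bars through the points are exact 95% intervals. Over all cells, Pdcd1-positive cells reach 20.2% to 25.0% and Pdcd1-zero cells 0.821% to 3.03%.

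Single lineages, each the cells sharing 1 TRB chain, differed from each other in their genes, also within 1 genotype. Their CDR3 nucleotide sequences, read from the receptor libraries, are shown because these lineages set some of the gene values below. Each runs from 5′ to 3′, with capitals marking the first and the last codon of the CDR3.
WT lineage 1, TRB with TRBV29 and TRBJ1-6: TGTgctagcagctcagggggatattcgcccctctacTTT
WT lineage 1, TRA with TRAV10 and TRAJ56: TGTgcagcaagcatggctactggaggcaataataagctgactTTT
WT lineage 2, TRB with TRBV5 and TRBJ1-3: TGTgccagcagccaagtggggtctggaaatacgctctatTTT
WT lineage 2, TRA with TRAV7N-6 and TRAJ26: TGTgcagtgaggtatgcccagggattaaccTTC
EomesTG lineage 1, TRB with TRBV12-1 and TRBJ2-5: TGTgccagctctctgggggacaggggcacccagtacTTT
EomesTG lineage 1, TRA with TRAV13-1 and TRAJ31: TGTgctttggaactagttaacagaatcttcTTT

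In WT lineage 1, only 8 of 44 spleen cells were Pdcd1-positive (18.2%), and 28 of its 129 liver cells were (21.7%). Its 8 members held no Lag3 UMI and 1 Tigit UMI, but 228 UMIs of the granzyme gene Gzma (3967 CPM). In WT lineage 2 all 3 spleen cells and all 12 liver cells were Pdcd1-positive, with Lag3 at 524 CPM, Tigit at 349 CPM, Ccl4 at 1571 CPM, Gzmk at 1222 CPM and Gzma at 0 in the spleen members. In EomesTG lineage 1, 12 of 15 spleen cells (80%) and 272 of 325 liver cells (83.7%) were Pdcd1-positive, and the lineage made up 7.19% of all kept EomesTG liver cells. Its 12 spleen members held 48 of the 301 Pdcd1 UMIs. Over these members Lag3 was at 728 CPM, Tigit at 666 CPM, Ccl4 at 1893 CPM, Gzmk at 936 CPM, Eomes at 499 CPM and Gzma at 333 CPM. The lineage was not uniform: 6 of its members also held a second TRA chain, TRAV9-4 with TRAJ35, not printed above. These 6 members held 5 Ccl4 and 33 Penk UMIs of 26295. The 5 members with only the printed TRA chain held 86 Ccl4 and 3 Penk UMIs of 18167. Lineages are not replicates of a genotype, and WT lineage 2 rests on 3 cells.

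For the main comparison, UMIs were summed over the members of each library, 1106928 UMIs in WT and 957456 in EomesTG, and expressed as CPM. A gene was called where it had at least 20 UMIs over both sides, differed at least 1.5-fold and had an interval on 1 side of equality. Of 7521 genes measured, 406 were called higher in EomesTG (5.40%) and 414 lower (5.50%), and the median log2 ratio (EomesTG over WT) was 0.01. In the Pdcd1-zero cells of the same libraries, 11685 genes were measured, of which 2.82% were called higher and 5.73% lower, with a median of −0.01. The same contrast in these cells is given beside the members' values for the groups and genes that differ most. Counts of called list genes below stand against these shares of all genes where no other setting is named. Counts under an alternative setting, such as thinned cells, have no share of all genes beside them, except in the effector-like cluster. The difference between the 2 contrasts was not tested.

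Among inhibitory receptors, Lag3, Tigit and Havcr2 were more than 4-fold higher in EomesTG members. Without Pdcd1, 5 of 13 measured receptor genes were called higher and 1 lower, against 5.40% and 5.50% of all genes, with a median log2 ratio of 0.53. The 5 were Lag3, Tigit, Havcr2, Ctla4 and Entpd1, and the 1 lower was Klrg1. In Pdcd1-zero cells 2 of 13 were higher and 4 lower, with a median of −0.26.

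Lag3, a receptor that binds MHC class II and restrains T cell activation (chr6:124904361-124911705, minus strand, mm10), gave 76 UMIs in 34 WT members and 289 UMIs in 78 EomesTG members. That is 68.7 CPM (54.1 to 85.9) in WT and 302 CPM (268 to 339) in EomesTG, 4.40-fold higher, a log2 ratio of 2.14 (1.77 to 2.52). In Pdcd1-zero cells it stood at 7.41 and 12.7 CPM, a log2 ratio of 0.78. Tigit, a receptor that competes with CD226 for shared ligands (chr16:43648867-43664146, minus strand), was at 35.2 CPM in WT and 159 CPM in EomesTG members, 4.51-fold higher (log2 2.17, 1.66 to 2.72). In Pdcd1-zero cells Tigit was at 6.08 and 6.40 CPM, with an interval around equality. The intervals of both receptors thus lay apart between genotypes in members, and those of Tigit overlapped over all Pdcd1-zero cells, though not in the effector-like ones described below.

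The remaining receptors were at lower levels. Havcr2, the gene of TIM-3, had 5 UMIs in WT members and 21 in EomesTG members, 4.52 against 21.9 CPM (log2 2.28, 0.83 to 4.04), and was not called with cells thinned to 2000 UMIs (1.70), with at least 2 Pdcd1 UMIs (1.60) or without the members whose TRB chain was also in the liver library. Ctla4, which competes with CD28 for its ligands, rested on 29 and 52 UMIs, 26.2 against 54.3 CPM (log2 1.05), and was not called with cells thinned (0.75, −0.38 to 1.96) or with at least 2 Pdcd1 UMIs (0.93, −0.23 to 2.22). Entpd1, the ectonucleotidase CD39, was at 5.42 CPM in WT and 26.1 CPM in EomesTG members (log2 2.27), whereas in Pdcd1-zero cells it was lower in EomesTG (log2 −1.15). Entpd1 was not called with cells thinned, with at least 2 Pdcd1 UMIs or without the members whose TRB chain was also in the liver library (1.93, −0.03 to 4.43), the last being an alternative chosen after seeing the data. Klrg1, a receptor of short-lived effector cells, had 28 UMIs in WT and 5 in EomesTG members, a log2 ratio of −2.28 (−4.01 to −0.88), and 15 of the 28 WT UMIs lay in WT lineage 1. In Pdcd1-zero cells Klrg1 was also lower (−1.51). Cd160 differed by less than 1.5-fold, with 124 CPM in WT and 101 CPM in EomesTG.

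Downstream of PD-1 the differences were small. Without Pdcd1, 2 of 13 measured pathway genes were called higher and none lower, with a median of 0.24. These were Ptpn11, the phosphatase SHP-2 that PD-1 recruits, at 37.9 CPM in WT and 64.8 CPM in EomesTG (log2 0.77, 0.18 to 1.37), and the costimulatory receptor Icos at 37.9 and 79.4 CPM (log2 1.06). Ptpn6, the related phosphatase SHP-1, was at 182 CPM in WT and 125 CPM in EomesTG, a difference under 1.5-fold. Cd28 was at 153 and 190 CPM, the proximal kinase Lck at 707 and 838 CPM, and Zap70 at 228 and 255 CPM. The ligand genes were low, with Cd274 at 14.5 and 19.8 CPM and Pdcd1lg2 at 18.1 and 23.0 CPM. In Pdcd1-zero cells none of 13 pathway genes was called. Neither Ptpn11 nor Icos was called in the effector-like cluster alone or with cells thinned to 2000 UMIs, and Ptpn11 was not called without the cycling-like cluster (0.64). In the effector-like cluster Zap70 was called higher (0.68) and Ptpn6 lower (−0.64).

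Transcription factors of exhausted and resident T cells were higher in 7 of 14 measured genes and lower in none, with a median of 1.12. The median was 0.32 (3 of 10 higher) with at least 50 UMIs, 0.24 (3 of 8) with cells thinned to 2000 UMIs. It was 0.44 (6 of 13) without the largest clone of each library, 0.49 (5 of 13) with 1 cell per clone and 0.48 (4 of 11) without the members whose TRB chain was also in the liver library. The share of all genes called under these settings is not given here. Tox, which sets the chromatin of exhausted T cells, was at 66.9 CPM (52.5 to 83.9) in WT and 187 CPM (161 to 216) in EomesTG, a log2 ratio of 1.48 (1.09 to 1.89). In Pdcd1-zero cells Tox was at 37.6 and 43.5 CPM. Nr4a2, an orphan nuclear receptor downstream of NFAT (chr2:57106830-57124003, minus strand), had 21 UMIs in 16 WT members and 155 in 38 EomesTG members, 19.0 against 162 CPM (log2 3.09, 2.43 to 3.83). A single EomesTG cell held 27.7% of its UMIs, and without the largest clone of each library the log2 ratio was 2.51. In Pdcd1-zero cells Nr4a2 was at 8.90 and 9.81 CPM. Nr4a1, its relative induced by receptor signalling, was at 41.6 and 173 CPM (log2 2.06), but 123 of its 166 EomesTG UMIs lay in the 18 members of the Nr4a1, Egr3 and Tnfrsf9 cluster. The other 4 higher genes were Tox2, Nr4a3, Maf and Nfil3, with log2 ratios from 1.60 to 2.28 on 16 to 35 EomesTG UMIs. Ikzf2, the gene of Helios, was not called, at 120 CPM in WT and 135 CPM in EomesTG. In Pdcd1-zero cells 1 of 15 factors was higher and 4 were lower, with a median of −0.28.

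**Figure D3:**
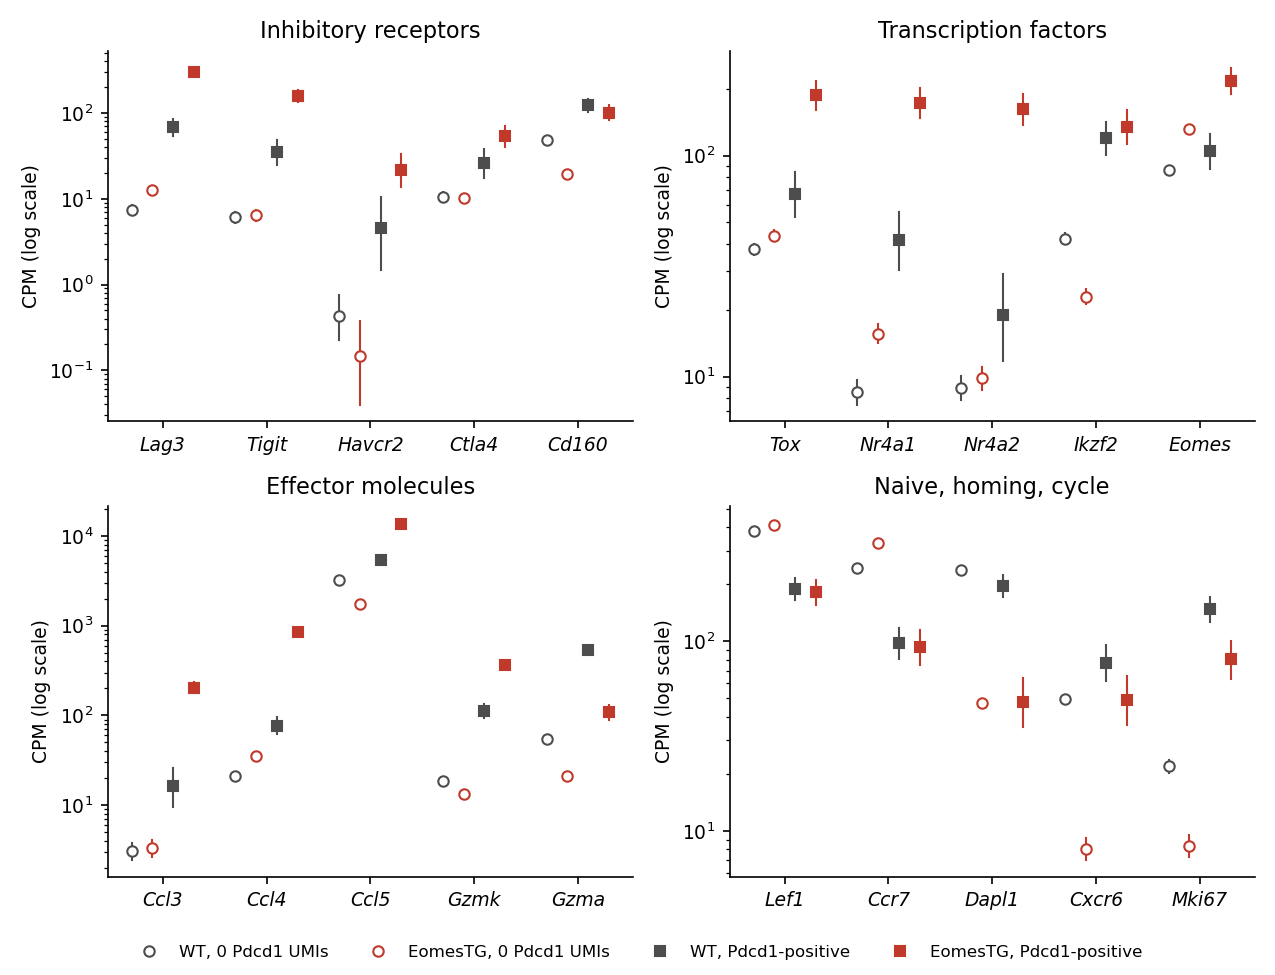
Summed level of 20 genes (CPM, log axis) in Pdcd1-zero cells (open circles) and Pdcd1-positive cells (filled squares) of WT and EomesTG spleen, with exact 95% intervals as bars. Lag3, Tigit, Ccl3, Ccl4 and Nr4a2 are highest in EomesTG Pdcd1-positive cells, whereas Gzma is highest in WT Pdcd1-positive cells.

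Among chemokines, Ccl3 and Ccl4 were more than 10-fold higher in EomesTG members. Of 9 measured chemokine and cytokine genes 5 were higher and none lower, with a median of 0.63. Ccl4, a chemokine that draws T cells and monocytes (chr11:83662584-83664683, plus strand), had 85 UMIs in 14 WT members and 803 UMIs in 55 EomesTG members. It was at 76.8 CPM (61.3 to 94.95) in WT and 839 CPM (782 to 899) in EomesTG, 10.9-fold higher, with a log2 ratio of 3.45 (3.13 to 3.79). Its neighbour Ccl3, a related chemokine (chr11:83647844-83649355, minus strand), was at 16.3 and 204 CPM (log2 3.65, 2.95 to 4.43), with UMIs in 8 WT and 35 EomesTG members. In Pdcd1-zero cells the log2 ratios were 0.74 for Ccl4 and 0.12 for Ccl3. Ccl5, the abundant memory chemokine, was at 5381 CPM in WT and 13657 CPM in EomesTG members (log2 1.34), and went the other way in Pdcd1-zero cells, at 3252 and 1741 CPM (log2 −0.90). Ifng, the gene of interferon-gamma, was at 15.4 and 53.3 CPM (log2 1.79), and Xcl1, which attracts cross-presenting dendritic cells, at 352 and 544 CPM (log2 0.63). Without the members whose TRB chain was also in the liver library Ifng was not called (log2 0.84), and without the largest clone of each library Xcl1 was not (0.21). In Pdcd1-zero cells 1 of 11 of these genes was higher and 5 were lower.

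Cytotoxic genes split by granzyme. Of 15 measured genes 3 were higher (Gzmk, Prf1 and Ifng) and 2 lower (Gzma and Klrg1), with a median of 0.36. Gzmk was at 112 CPM (93.2 to 134) in WT and 366 CPM (328 to 406) in EomesTG members, with UMIs in 29 and 74 cells (log2 1.71, 1.41 to 2.01). Gzma (chr13:113093825-113100981, minus strand) went the other way, at 533 CPM (491 to 578) in WT and 109 CPM (88.8 to 132) in EomesTG, 4.91-fold lower (log2 −2.29, −2.61 to −1.99). The Gzma values rest on 17 WT and 16 EomesTG cells: 1 WT cell held 30.3% and 1 EomesTG cell 37.5% of the UMIs, and WT lineage 1 held 228 of the 590 WT UMIs. Without the members whose TRB chain was also in the liver library, the log2 ratio of Gzma was −0.60. Prf1, which encodes the pore protein perforin, was at 37.9 and 87.7 CPM (log2 1.21), and Gzmb at 80.4 and 117 CPM, not called. In Pdcd1-zero cells Gzmk was at 18.6 and 13.2 CPM and Prf1 at 44.1 and 59.3 CPM. In Pdcd1-zero cells 11 of 15 cytotoxic genes were lower and none higher, with a median of −1.30. In Pdcd1-positive liver cells Gzma was higher in EomesTG, at 428 CPM in WT and 7666 CPM in EomesTG, while the liver log2 ratios of Lag3 (1.97) and Tigit (2.01) had the direction seen in spleen.

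Eomes itself (chr9:118478212-118486132, plus strand) was at 105 CPM (86.6 to 126) in WT and 218 CPM (190 to 250) in EomesTG members, with UMIs in 47 and 91 cells (log2 1.06, 0.72 to 1.40). In Pdcd1-zero cells it was at 86.2 and 131 CPM (log2 0.61). The gene was thus higher in the library labelled EomesTG on both sides, and reads of the transgene were not separable from those of the endogenous gene. Of the 13 memory genes 5 were higher in EomesTG members (Ly6c2, Ly6a, Eomes, Ccl5 and Nkg7) and none lower, with a median of 0.51. Nkg7, a granule protein of cytotoxic cells, was at 1104 and 2049 CPM (log2 0.89). Among the 9 measured NK receptor and adaptor genes 3 were higher and 1 lower, against 5.40% and 5.50% of all genes. The higher ones were Klra3 (log2 2.12), Klre1 (1.90) and Klrc1 (1.07), receptors of NK cells and of some CD8 T cells. In Pdcd1-zero cells 11 of 19 genes of this list were lower and 2 higher, and Klre1 (−1.69) and Klrc1 (−0.65) had the opposite sign. Fcer1g, the lower gene in members (31 UMIs in WT and 1 in EomesTG), had 71.0% of its WT UMIs in 1 cell.

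Genes that follow receptor stimulation were higher as well. Of 19 measured genes of receptor signalling and its feedback 9 were higher and none lower (median 0.58): Nr4a1, Egr1, Egr2, Egr3, Cd69, Nfkbid, Tnfrsf4, Socs3 and Rgs16. Tnfrsf4, the costimulatory receptor OX40, rested on 1 EomesTG cell for 57.1% of its UMIs. With cells thinned to 2000 UMIs 2 of 13 measured genes of this list were higher (median 0.45), with no share of all genes beside them. In the effector-like cluster 4 of 13 were (median 0.58), and Egr1 pointed the other way there. In Pdcd1-zero cells 4 of 20 genes of this list were higher (Nr4a1, Egr2, Nfkbid and Socs3, all among the 9) and none lower. Rgs16, which shortens chemokine receptor signals, was at 22.6 and 68.9 CPM (log2 1.61). The immediate early list, which also responds to handling of the cells, had 9 of 13 higher and none lower (median 0.92) in members and 5 of 14 higher and 1 lower (median 0.51) in Pdcd1-zero cells. Fos, for example, had a log2 ratio of 1.74 in members and 1.79 in Pdcd1-zero cells. The heat shock genes Hspa1a and Hspa1b were near absent from WT: Hspa1a had 1 UMI in WT members and 85 in EomesTG members (log2 6.62, 4.10 to 11.94), with 3.15 and 208 CPM in Pdcd1-zero cells. Of 9 heat shock genes 3 were higher in members, the third being Dnajb1, and 2 were lower, Hspe1 and Hspd1. Heat shock and immediate early genes thus differed between the libraries outside the members too, and their part in the other values was not tested.

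Genes of naive and recirculating cells differed little, with 1 of 14 called higher and 1 lower (median 0.09), against 5.40% and 5.50% of all genes. Lef1, a transcription factor of naive T cells, was at 189 CPM in WT and 181 CPM in EomesTG members, and the chemokine receptor Ccr7 at 97.6 and 93.0 CPM. The lower gene was Dapl1, at 195 and 48.0 CPM (log2 −2.02), which was likewise lower in Pdcd1-zero cells, at 237 and 47.0 CPM (log2 −2.33). The higher gene was Cxcr5 (log2 1.35), a receptor for B cell follicles, on 10 WT and 22 EomesTG UMIs. Of 15 homing and integrin genes 2 were higher and 2 lower, the lower ones being Cxcr6 and Itgae, with a median of 0.09; in Pdcd1-zero cells 1 of 19 was higher and 7 were lower. Cxcr6, which marks liver-resident T cells, was at 76.8 CPM (61.3 to 94.95) in WT and 49.1 CPM (36.1 to 65.3) in EomesTG members (log2 −0.65, −1.19 to −0.11), and at 49.6 and 8.05 CPM in Pdcd1-zero cells (log2 −2.62). Without the members whose TRB chain was also in the liver library it was not called (−0.23). The epithelial integrin gene Itgae had 18 UMIs in WT and 2 in EomesTG members (log2 −2.96, −6.11 to −0.90).

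Cell cycle genes were lower in EomesTG members, in 10 of 15 measured genes and higher in none, with a median of −0.83. Mki67 was at 147 CPM (126 to 172) in WT and 80.4 CPM (63.5 to 101) in EomesTG (log2 −0.87), and Stmn1, which destabilises microtubules, at 412 and 193 CPM (log2 −1.09). Of the members, 27 in WT and 12 in EomesTG were in the cycling-like cluster. Without that cluster only 7 of the 15 genes had enough UMIs to be measured and none of them was called, and without the members whose TRB chain was also in the liver library Mki67 was not (−0.24). Within it, Mki67 was at 412 CPM in WT and 540 CPM in EomesTG members. In Pdcd1-zero cells 13 of 15 were lower (median −1.07).

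The remaining lists held single genes of size. Over all genes, 5.40% were called higher and 5.50% lower in members, and 2.82% and 5.73% in Pdcd1-zero cells. Il10ra, the receptor chain through which interleukin-10 restrains T cells, was at 55.1 CPM (42.2 to 70.8) in WT and 164 CPM (139 to 192) in EomesTG (log2 1.57, 1.14 to 2.02), and at 29.5 and 32.9 CPM in Pdcd1-zero cells. With Il21r (0.66) it made up the 2 of 17 cytokine receptors that were higher, and none was lower. Of 13 apoptosis and survival genes 2 were higher and none lower, and the survival gene Bcl2 was at 84.0 and 157 CPM (log2 0.90). Of 14 interferon response genes 5 were higher and none was lower, with a median of 0.15. Of 10 follicular and regulatory genes 5 were higher, Cxcr5, Icos, Sh2d1a, Ctla4 and Izumo1r, and none lower. In the effector-like cluster 1 of 8 was higher, Ikzf2, and none of those 5 was called. With cells thinned to 2000 UMIs 1 of 8 was higher. Glycolysis genes had 1 of 13 lower, Tpi1, and a median of 0.08. Serpina3g, a protease inhibitor of activated T cells, was at 32.5 and 127 CPM in members (log2 1.97) and also higher in Pdcd1-zero cells (1.48). In Pdcd1-zero cells none of 18 cytokine receptors was called, 1 of 14 apoptosis genes was higher and 1 lower, and 5 of 16 interferon response genes were higher and 2 lower. Of the follicular and regulatory genes 2 of 13 were higher there, Cxcr5 and Izumo1r, and 4 lower. Of the glycolysis genes 1 of 14 was lower.

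Penk, the gene of the enkephalin precursor (chr4:4133531-4138819, minus strand), was the gene found only on the EomesTG side among those highest by rule. It had no UMI in WT members, where a count of 0 allows up to 3 counts, and 57 UMIs in 11 EomesTG members (59.5 CPM), at least 22.0-fold higher. A single cell held 50.9% of these UMIs and EomesTG lineage 1 held 36 of the 57. Among the lowest genes, Atp5k, a subunit of the mitochondrial ATP synthase, was at 356 and 122 CPM (log2 −1.54) and likewise lower in Pdcd1-zero cells (−1.06). Kntc1, of the spindle checkpoint, had a log2 ratio of −4.11, Ccnb1ip1 of −2.22, and the histone genes Hist1h2ak and Hist1h4i of −3.79 and −2.68. Other low genes rested on single WT cells: 1 cell held 60% of the Hist1h2ab UMIs, 83% of those of Hist1h3f and 97% of those of Spp1.

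Within the effector-like cluster alone, where the numbers of cycling and of naive-like cells do not enter the sums, Lag3, Ccl3 and Ccl4 had ratios near those over all members. This restriction, 56 WT and 95 EomesTG members, was chosen after seeing the data. Of 4427 genes measured, 4.27% were higher and 2.53% lower in EomesTG. Among inhibitory receptors without Pdcd1, 4 of 10 were higher, and among chemokines 5 of 7. Of 12 cytotoxic genes 2 were higher and 4 lower. Lag3 was at 123 and 484 CPM (log2 1.97, 1.45 to 2.54), Tigit at 79.8 and 252 CPM (1.66), Ccl4 at 109 and 957 CPM (3.14, 2.60 to 3.72), Nr4a2 at 32.6 and 235 CPM (2.85) and Tox at 109 and 279 CPM (1.36). Ccl5 differed less than over all members, at 17171 and 26886 CPM (0.65, against 1.34), and Ctla4 was not called (0.49).

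Some genes differed more in this cluster than over all members. Xcl1 was at 43.5 CPM in WT and 517 CPM in EomesTG (log2 3.57, 2.74 to 4.55), against 0.63 over all members. Ikzf2 was at 54.4 and 168 CPM (1.62, 0.81 to 2.53), against 0.17. Eomes was at 79.8 and 263 CPM (1.72). Il7r, the interleukin-7 receptor chain of naive and memory cells, was lower here, at 283 and 147 CPM (−0.95, −1.45 to −0.45), as was Gzma at 500 and 114 CPM (−2.13). No cell cycle gene was called among the 5 measured.

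Pdcd1-zero cells of the effector-like cluster shared part of the contrast. There, 3.44% of 8493 genes were higher and 2.15% lower. Of 15 cytotoxic genes 1 was higher and 6 were lower. Lag3 was at 32.8 and 116 CPM (log2 1.83), Tox at 32.0 and 82.6 CPM (1.37), Eomes at 61.9 and 182 CPM (1.56) and Ikzf2 at 9.83 and 30.5 CPM (1.63). These 4 ratios lay near those of the Pdcd1-positive effector-like cells. Tigit was also called higher, at 22.9 and 50.5 CPM (1.14, 0.60 to 1.68), against 1.66 in the positive cells. For Ccl4 (55.3 and 68.2 CPM, 0.30), Ccl3 (8.60 and 22.5 CPM, 1.38) and Xcl1 (25.4 and 52.9 CPM, 1.06) the ratio was smaller in Pdcd1-zero cells, and its interval lay below that of the positive cells. For Nr4a2 (9.42 and 18.4 CPM, 0.97) the 2 intervals met. No test of this difference was made.

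**Figure D4:**
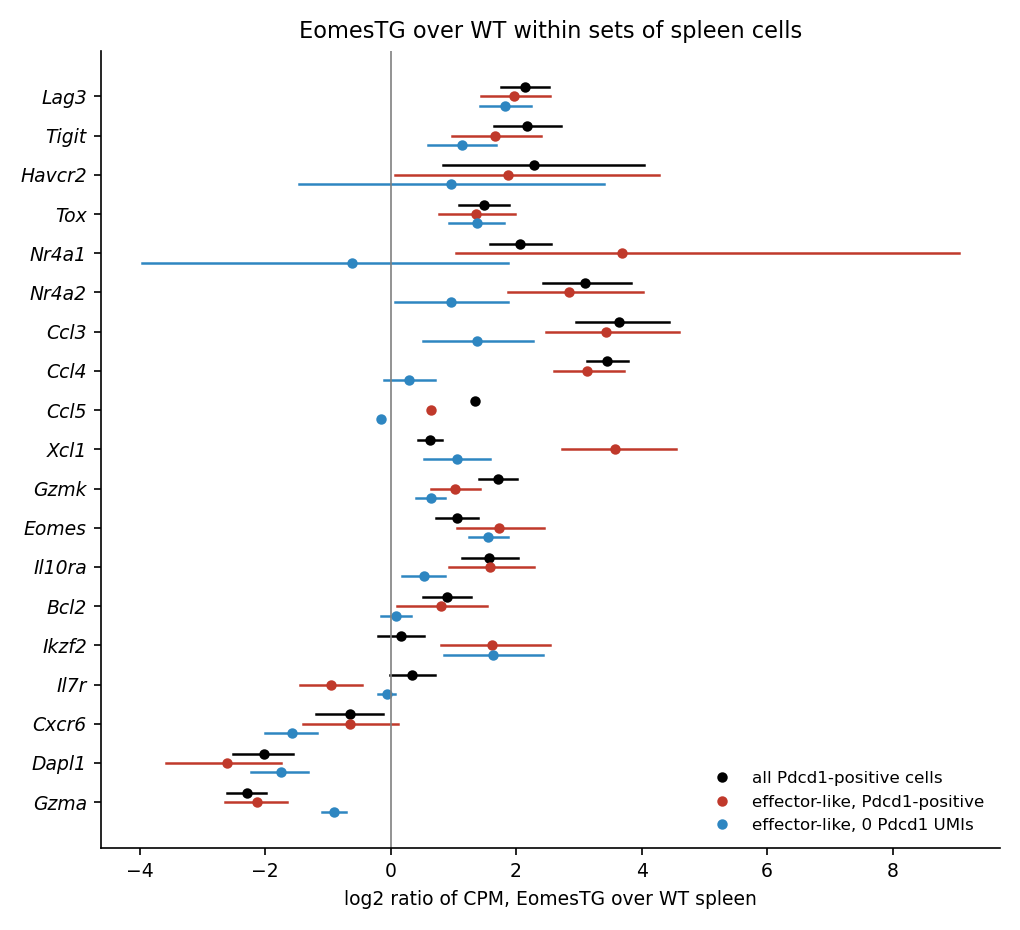
Log2 ratio of EomesTG over WT (horizontal axis) for 19 genes in all Pdcd1-positive spleen cells (black), in Pdcd1-positive cells of the effector-like cluster (red) and in Pdcd1-zero cells of that cluster (blue), with exact 95% intervals as bars. Lag3, Tox and Eomes have like ratios in both kinds of effector-like cell, whereas Ccl4 stands at 3.14 in positive and 0.30 in zero cells.

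In the other clusters the receptors also had higher levels in EomesTG members, on fewer cells. Lag3 was at 35.0 CPM in WT and 90.0 CPM in EomesTG members of the Sox4, Hdac9 and Tubb2b cluster, at 90.8 and 181 CPM in the Nr4a1, Egr3 and Tnfrsf9 cluster, and at 53.4 and 310 CPM in the cycling-like cluster. Tigit was at 35.0 and 83.6 CPM, 19.5 and 43.4 CPM, and 20.3 and 177 CPM in the same 3 clusters. Ccl4 was highest in the Nr4a1, Egr3 and Tnfrsf9 cluster, at 337 CPM in WT and 2336 CPM in EomesTG members. The genotypes' intervals for both receptors lay apart in the cycling-like and the effector-like cluster and overlapped in the other 2, where Tigit rested on 3 to 13 UMIs a library.

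Cells of EomesTG spleen with more Pdcd1 UMIs had more of the other checkpoint genes. The classes use the readout of the rule, so these levels are a description. In EomesTG spleen Lag3 was at 12.7 CPM in cells with 0 Pdcd1 UMIs, 168 CPM with 1, 434 CPM with 2 and 600 CPM with 3 or more. In WT the same classes were at 7.41, 56.2, 97.7 and 121 CPM. Tigit in EomesTG cells was at 6.40, 83.0, 177 and 400 CPM, and in WT cells at 6.08, 22.7, 79.4 and 65.4 CPM. At every class from 1 UMI up, Lag3 and Tigit thus had higher levels in EomesTG than in WT cells, although the Tigit intervals overlapped at 2 UMIs and the class of 3 or more holds only 9 WT cells.

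Nr4a2 in EomesTG cells was at 9.81, 55.4, 149 and 551 CPM over the same classes, and Ccl4 at 35.3, 645, 976 and 1338 CPM. Gzmk was at 13.2, 322, 350 and 539 CPM in EomesTG and at 18.6, 93.3, 189 and 140 CPM in WT. Cxcr6 in EomesTG cells was at 8.05, 36.3, 46.7 and 96.9 CPM, and in WT cells at 49.6, 78.9, 79.4 and 56.0 CPM. The classes of 1, 2 and 3 or more Pdcd1 UMIs differ in depth and in make-up. Their median UMIs were 5368, 6347.5 and 9668 in WT and 4467, 6262 and 4817 in EomesTG. The effector-like cluster held 35.9%, 54.5% and 22.2% of their WT cells and 60.4%, 37.9% and 68.0% of their EomesTG cells. The part of depth and of cluster make-up in the levels of all these genes, Lag3 and Tigit included, was not tested.

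**Figure D5:**
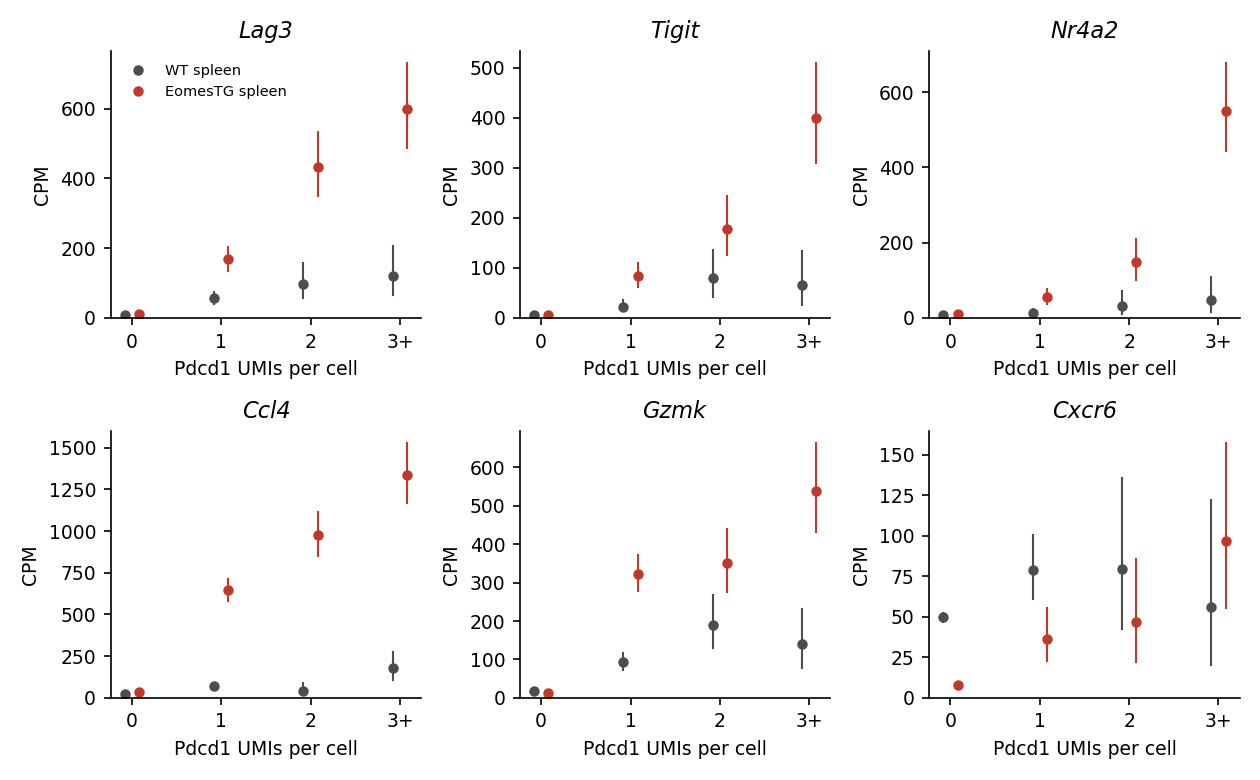
Summed level (CPM, vertical axis) of Lag3, Tigit, Nr4a2, Ccl4, Gzmk and Cxcr6 in spleen cells with 0, 1, 2 and 3 or more Pdcd1 UMIs (horizontal axis), for WT and EomesTG, with exact 95% intervals as bars. Lag3 reaches 600 CPM in EomesTG and 121 CPM in WT cells with 3 or more Pdcd1 UMIs.

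Among members, Lag3 and Tigit were found in more cells in EomesTG than in WT spleen. The members were chosen at their own depth, and the other genes were then read with every cell thinned to 2000 UMIs, for which 142 WT and 153 EomesTG members were deep enough. A Lag3 UMI was in 12.0% of WT members (7.13 to 18.5) and 36.6% of EomesTG members (29.0 to 44.8), against 1.32% and 1.96% of Pdcd1-zero cells. The naive-like clusters, which should lack the gene, gave 0.361% and 0.302%. A Tigit UMI was in 7.04% and 20.9% of members, and in 1.26% and 1.02% of Pdcd1-zero cells. Both Lag3 and Tigit were seen in 5 WT members (3.52%) and 19 EomesTG members (12.4%), and neither in 84.5% and 54.9%. Without thinning, 8.11% of WT and 24.8% of EomesTG members held both, and 67.6% and 42.4% held neither.

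Ccl4, Gzmk, Il10ra and Eomes were likewise found in more of the EomesTG members, with intervals that lay apart, whereas those of Tox overlapped. Ccl4 was in 4.93% of WT and 24.8% of EomesTG members, Gzmk in 14.8% and 34.0%, Il10ra in 10.6% and 28.8%, and Tox in 15.5% and 25.5%. Eomes was in 15.5% and 31.4% of members, and in 12.3% and 21.5% of Pdcd1-zero cells. Gzma was in 10.6% of WT and 7.84% of EomesTG members, with overlapping intervals.

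Against the Pdcd1-zero cells of their own library, members of both genotypes had more checkpoint, effector and cell cycle RNA and less naive RNA. The members were chosen by a readout of the same cells, so these values are a description. In WT, 14.7% of 11083 genes were higher in members and 3.08% lower. In EomesTG, 14.4% of 10940 were higher and 2.92% lower. Inhibitory receptors without Pdcd1 had a median log2 ratio of 1.31 in WT and 2.28 in EomesTG, transcription factors 1.21 and 2.55, and chemokines 1.03 and 2.97. All 15 cell cycle genes were higher in WT members and 14 of 15 in EomesTG members.

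Single genes showed how the members of each genotype stood out. In WT the genes led by the rule included Zbtb32, a transcriptional repressor of activated lymphocytes (log2 4.08), and Gzma, and in EomesTG Havcr2 (7.23), Ccl3 (5.93), Tox2 (5.53), Rgs16 (5.21), Gzmk (4.79) and Ccl4 (4.57). Zbtb32 had a ratio of 4.06 in EomesTG. Lag3 had a ratio of 3.21 in WT and 4.57 in EomesTG, Tigit 2.54 and 4.63, and Cxcr6 0.63 and 2.61. Lower in members were Il7r (−1.81) and Igfbp4 in WT, and Ccr7 (−1.83) and Satb1 (−1.86), a chromatin organiser of naive T cells, in EomesTG. Eomes itself had a ratio of 0.28 in WT, which was not called, and 0.73 in EomesTG, which was called higher.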

How the data were processed

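The authors deposited UMI counts, not normalized, of 31053 genes in each barcode, and filtered receptor contigs with their read and UMI counts. Per the submitters' processing notes these came from Cell Ranger on mm10, and per the file headers from software version 3.1.0; the annotation and the handling of free RNA were not given in the sources used here. Deposited barcodes numbered 5415 in WT and 5774 in EomesTG spleen, of which 80 and 48 were left out by the minimums of 500 UMIs and 300 genes and the limit of 10% mitochondrial UMIs.

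Members, the 18 gene lists and the tests were chosen with earlier results of these data known. UMIs were summed over the cells of a population; CPM has an exact Poisson interval, a log2 ratio an exact conditional binomial interval and a share an exact Clopper-Pearson interval, all at 95%. A fold against 0 was computed against a floor of 3 counts over the group. Both spleen libraries were clustered with scanpy 1.11.5 and leidenalg 0.10.2 on 2000 variable genes, without integration (30 components, 15 neighbours, resolution 1). The sums and calls were tested on simulated data that held counting error only. The simulation had no spread between cells, clones or mice, so it does not show how the calls hold under such spread. Cluster sizes are given as denominators, and their differences between genotypes were not tested. Gene positions are those of GENCODE vM21 (mm10).

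Genes named were the 10 highest and 10 lowest called by the interval bound nearest to equality in the main comparison. In each comparison of Pdcd1-positive with Pdcd1-zero cells they were 10 and 5, not all of them printed. Called members of each list, all genes of the PD-1 pathway list, and Pdcd1, Lag3, Tigit, Eomes and Cxcr6 were named too. Genes named beyond this rule were chosen after their values were seen. Some genes of the lists are not reported here by name. Of these 18 lists each is reported once. Doublets were not removed: Scrublet marked 1 of 5335 kept WT and 0 of 5726 kept EomesTG spleen cells, too few to have worked. Among members, 8 in WT and 12 in EomesTG held 2 productive TRB chains. There were 20 alternatives planned and 4 chosen after seeing the data. Python 3.11.15, scipy 1.17.1 and pandas 2.3.3 were used.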

Additional observations from a re-analysis of the deposited data

Results flagged for a closer look

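Among the genes of the 18 lists, 7 were called higher in EomesTG in Pdcd1-positive spleen cells and lower in Pdcd1-zero cells. Each had an interval on its own side of equality. Over all genes, 5.40% were called higher in members and 5.73% lower in Pdcd1-zero cells. How many of all genes had opposite calls is not given here. The difference between the 2 contrasts was not tested, since each genotype has 1 library. Ccl5 had a log2 ratio of 1.34 in Pdcd1-positive and −0.90 in Pdcd1-zero cells. Xcl1 had 0.63 and −0.84, and the ectonucleotidase gene Entpd1 2.27 and −1.15. The NK receptor genes Klre1 and Klrc1 had 1.90 and −1.69, and 1.07 and −0.65. The transcription factor gene Maf had 1.60 and −1.06, and the immediate early gene Ier3 1.79 and −0.65. The clusters that make up the 2 populations differ: the effector-like cluster held 37.8% of WT and 57.6% of EomesTG members, but 10.6% and 5.39% of Pdcd1-zero cells. In Pdcd1-zero cells of that cluster Xcl1 (log2 1.06) and Ier3 (0.68, 0.08 to 1.27) were higher in EomesTG, and Ccl5 (−0.15), Klre1 (0.36), Klrc1 (−0.17) and Entpd1 (−0.53) were not called. Maf had 10 UMIs in WT and 9 in EomesTG, too few to be called.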

How the results depend on the processing

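Depth limits these values: most members held 1 Pdcd1 UMI, and genes under 20 UMIs were not measured. No paired analysis was possible because each genotype has 1 library and no result comes from a replicated test. The counts of 406 genes higher and 414 lower became 266 higher with at least 50 UMIs, 202 and 258 with at least 2 Pdcd1 UMIs, 158 and 123 with cells thinned to 2000 UMIs, 215 and 192 at 2-fold, 189 and 112 in the effector-like cluster only, and 185 lower without the cycling-like cluster. Member shares moved to 1.36% (WT) and 1.55% (EomesTG) when thinned and to 0.581% and 0.943% at 2 Pdcd1 UMIs. Fewer UMIs, cells or a stricter fold enter by construction in these settings. Most of these settings also change the number of genes measured, so the counts are not shares of all genes. Clone shares stayed within their intervals by TRB alone and without barcodes with 2 TRB chains.

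Lag3, Tigit, Tox, Nr4a2, Ccl3 and Ccl4 were called higher and Gzma lower under each alternative that gave a value, with Gzma nearest to equality without liver-shared TRB chains (−0.60). Directions reversed in the effector-like cluster only for Egr1 (−0.72), Gbp2 (−0.70), Hspd1 (0.50), Hspe1 (0.28), Izumo1r (−0.16), Ly6c2 (−0.14), Mcm5 (0.062), Stmn1 (0.24) and Tpi1 (0.43), at 2 Pdcd1 UMIs for Izumo1r (−0.086) and Zfp36 (−0.059), and without the cycling-like cluster for Stmn1 (0.40) and Top2a (0.14); the cause was not tested. Other scalings shifted all ratios by −0.01 and −0.03. The mean of per-cell CPM has no interval and so no count of calls.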
